A study of Bos taurus with 12 samples.

Results

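Both arms of bta-miR-21 were examined in bovine mammary gland, as the entries of the deposited expression matrix named bta-miR-21-5p and bta-miR-21-3p. They are 2 of the 388 mature miRNAs in the matrix, each listed with 1 precursor. Small RNA libraries were sequenced from the total RNA of mammary biopsies of 12 multiparous Chinese Holstein cows without mastitis, 1 library per cow. HP and LP were 3 cows each with a high or a low milk protein percentage, sampled in lactation at 70 to 85 days in milk, and HD and LD were 3 cows each with a high or a low percentage, sampled in the non-lactating period. The HD and LD cows were 24 to 35 days past dry-off and 20 to 39 days from calving. The paper classed cows as high or low by herd records of the previous lactation. No group was set by a treatment, all biopsies were taken under anaesthesia, and each stage held different cows, so that stage and cow cannot be separated within an animal.

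A miRNA precursor is a hairpin that Drosha and Dicer cut into a short duplex. One strand of the duplex, the guide, is loaded into an Argonaute protein and pairs through its seed with target mRNAs, while the passenger strand is mostly degraded, so the ratio of the 5p to the 3p arm describes what is left of each strand. MiR-21 is known as an abundant miRNA of epithelium, leukocytes and fibroblasts whose 5p arm represses PDCD4, an inhibitor of translation and a tumour suppressor. Its transcription is known to be induced by STAT3, AP-1 and NF-kB, factors of the immune and stress response, and the host transcript overlaps the 3′ end of VMP1, a gene of autophagosome formation. In the RefSeq annotation of ARS-UCD2.0 the genes on either side of MIR21 are VMP1 and TUBD1.

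Levels are given in TPM as the authors named them, which are shares of the counted reads scaled to 1 total in all libraries (RPM), without correction for length. Mature miRNAs are of nearly the same length, and the values rank reads rather than molecules. Inferred depth was about 6026800 to 23577900 counts per library over all entries, which count a read again for each precursor of its miRNA. With each miRNA counted once it was 4694220 to 17685000 reads, with a median of 8713620 for lactation libraries and 16496100 for the others. TPM depends on the few most abundant miRNAs, and normalized TPM was therefore also computed by dividing each library by its size factor, the median ratio of its miRNAs to their mean over the libraries. The size factors ranged from 0.764 to 1.50 and were highest in HD replicate 1 and LD replicate 1, which stood apart from the other 4 non-lactating libraries at 0.764 to 1.11. The 6 epithelial marker miRNAs, the miR-200 family and miR-205, were all present, at a summed 17499 to 55127 normalized TPM per library. Of 4 skeletal muscle miRNAs 3 were listed, at a summed 107 to 604 normalized TPM.

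MiR-21-5p was among the most abundant miRNAs of every library and miR-21-3p was a minor product in every library. In HP, miR-21-5p had 18165, 23890 and 17323 TPM in replicates 1 to 3. The LP libraries had 16103, 24064 and 25511 TPM. In HD it had 41176, 20566 and 21058 TPM, and in LD 44742, 27316 and 17890 TPM. Replicate 1 of HD and replicate 1 of LD were far above all other libraries, and otherwise the 4 groups overlapped. The 5p arm took 1.61% to 4.47% of all TPM of a library and ranked between the third and the eleventh place of 388 miRNAs, which corresponds to 109476 to 641021 reads.

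MiR-21-3p, the strand that is mostly degraded, had 26.4, 47.0 and 29.9 TPM in HP and 60.7, 27.4 and 49.1 TPM in LP. In HD it had 27.7, 31.0 and 39.8 TPM, and in LD 101.7, 55.3 and 35.2 TPM. LD replicate 1 had the highest level of all 12 libraries, and LD replicate 3 lay within the range of HD. It ranked between place 136 and place 194 and was counted with 159 to 1457 reads, against the 3 reads, worth 0.127 to 0.498 TPM, that mark the detection floor.

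**Figure D1:**
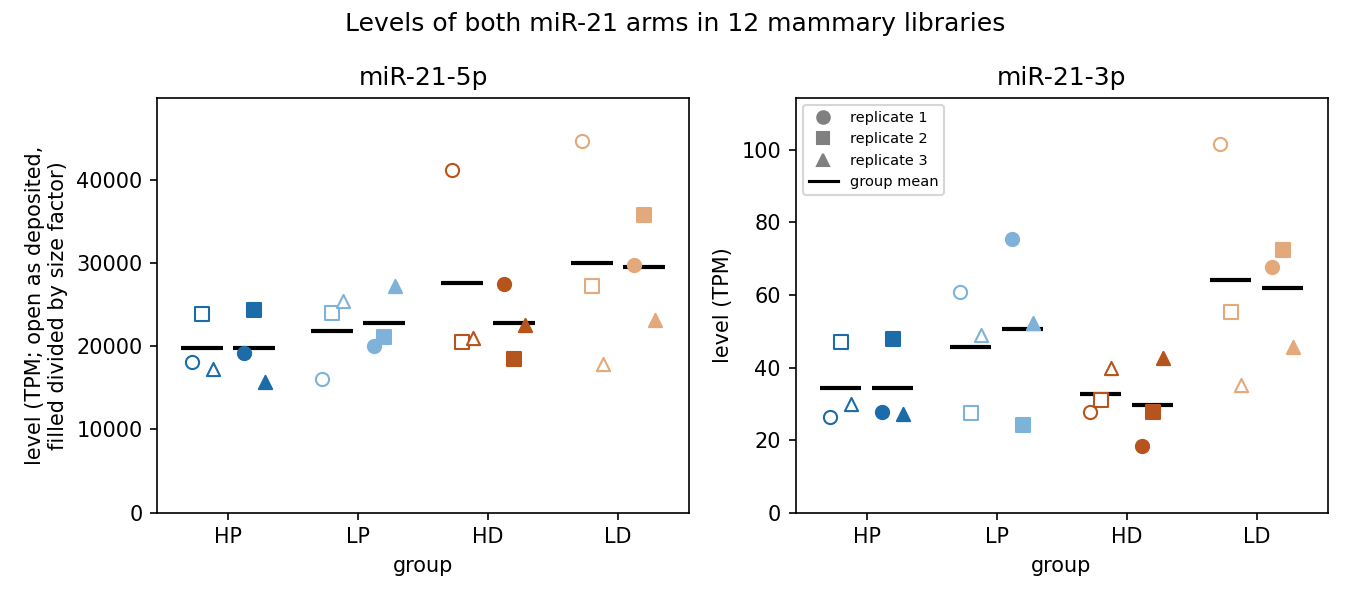
Levels of miR-21-5p (left) and miR-21-3p (right) in TPM on linear axes from 0, by group, with open symbols for the deposited TPM, filled symbols for TPM divided by the size factor over 12 libraries, symbol shapes for the replicate number and bars for the mean of 3 cows. Division by the size factor moved HD replicate 1 from 41176 to 27454 and LD replicate 1 from 44742 to 29827 for the 5p arm.

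After normalization over the 12 libraries, miR-21-5p averaged 19753 ± 4340 in the HP and 22787 ± 3875 in the LP libraries, and 22829 ± 4508 in HD and 29579 ± 6317 in LD (normalized TPM, SD, n = 3 cows each). Each mean lay within 1 SD of the next in that order, except that HD and LD differed by more than the SD of either group. MiR-21-3p averaged 29.6 ± 12.2 in HD, 34.3 ± 11.8 in HP, 50.6 ± 25.7 in LP and 61.9 ± 14.4 in LD. In that order neighbouring means differed by less than the larger of their SDs. With the deposited TPM the order of the 4 means was the same for the 3p arm (32.8, 34.4, 45.7 and 64.1 TPM) and for the 5p arm (19793, 21893, 27600 and 29982 TPM).

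Among all miRNAs, miR-21-5p held place 9 by mean TPM in lactation and place 7 in the non-lactating period. In lactation its mean of 20843 ± 4086 TPM (SD, n = 6) lay between let-7f at 24243 ± 10209 and miR-181a at 19021 ± 4838, a difference to either neighbour smaller than their SDs. In the non-lactating period its mean of 28791 ± 11457 TPM (SD, n = 6) lay between miR-27b at 31376 ± 6097 and miR-148a at 25845 ± 13789. Both differences were again smaller than the SDs, and the median of miR-21-5p over these 6 libraries was 24187 TPM. MiR-148a, the leading miRNA of lactation at 154416 ± 29355 TPM and known for its abundance in milk, thus ranked just below miR-21-5p outside lactation. The other miRNAs above miR-21-5p in both stages were miR-143, miR-30a-5p, miR-26a, miR-10b and miR-27b. MiR-22-3p and let-7f ranked above it in lactation and miR-181a in the non-lactating period.

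How much miR-21 varied between cows of a group depended on the scale. The residual SD of miR-21-5p after group means was 0.29 on the log2 scale of normalized TPM, and 14 of the 68 miRNAs with a mean of at least 1000 TPM had a smaller one, against a median of 0.40. On deposited TPM it was 0.49, and 44 of the 68 had a smaller one, against a median of 0.41. For miR-21-3p the residual SD was 0.58, and 69 of the 102 miRNAs with a mean of 10 to under 100 TPM had a smaller one, against a median of 0.44. On deposited TPM it was 0.54, and 40 of the 102 had a smaller one, against a median of 0.60. Each arm thus changed sides within its abundance class with the scale.

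The arm ratio, the TPM of miR-21-5p over that of miR-21-3p within a library, is free of any scaling between libraries. It was 689, 509 and 579 in HP and 265, 878 and 520 in LP. It was 1486, 664 and 529 in HD and 440, 494 and 508 in LD. LP replicate 1 had the lowest ratio and HD replicate 1 the highest, and in every library the 5p arm was at least 265 times the 3p arm. As a share of all miR-21 reads, the 3p arm made up 0.376% in LP replicate 1 (exact Clopper-Pearson 95% interval 0.350% to 0.402%) and 0.0672% in HD replicate 1 (0.0599% to 0.0752%). These intervals cover counting error only, and in both libraries they did not overlap with the interval of any other library.

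**Figure D2:**
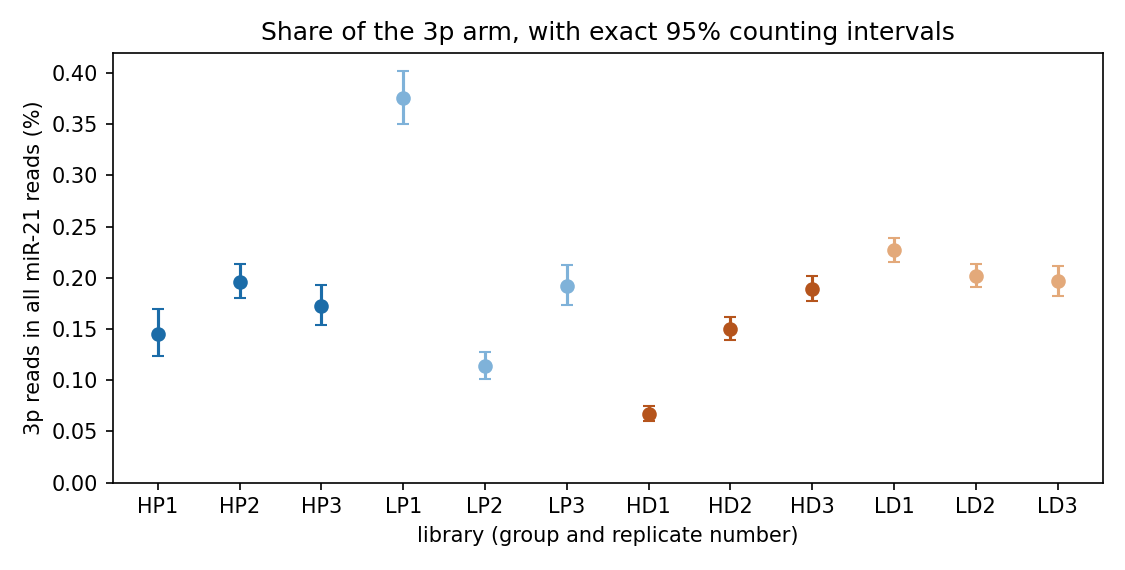
Share of miR-21-3p in the reads of both arms (percent, linear axis from 0) for each library, named by group and replicate number, with exact 95% intervals for counting error. LP replicate 1 at 0.376% and HD replicate 1 at 0.0672% are the extremes, and the LD libraries at 0.196% to 0.227% are all above the HD libraries, of which the nearest is at 0.189%, while 11.1% of all 36 arm ratios separate HD from LD. The intervals of HD replicate 3 and LD replicate 3 overlap.

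On the log2 scale the mean arm ratio of HP was 9.20 ± 0.22 and that of LP 8.95 ± 0.87, while HD had 9.65 ± 0.78 and LD 8.91 ± 0.11 (SD, n = 3). Lactation differed from the non-lactating period by -0.21 (SE 0.35, 6 against 6 libraries, two-sided exact permutation p = 0.606). LP minus HP was -0.25 (SE 0.52, exact permutation p = 0.80). LD minus HD was -0.75 (SE 0.46, exact permutation p = 0.10), with every LD library below every HD library. The groups of 11.1% of the 36 miRNAs listed with both arms were separate in this way, and those of 5.56% in this direction. As a share of 3p reads, the counting interval of HD replicate 3 (0.177% to 0.201%) overlapped with that of LD replicate 3 (0.183% to 0.211%). The separation was thus not beyond counting error. A test of 3 against 3 libraries cannot give a p under 0.1, so that no call was possible within a stage, and without HD replicate 1 the difference between LD and HD was -0.31.

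Among the 36 miRNAs listed with both arms, miR-21 was the second most unequal, with a mean log2 arm ratio of 9.14. Only miR-22 was more unequal, at -9.90, in favour of its 3p arm. MiR-126, an endothelial miRNA, followed at -8.73 and miR-27a at -7.68, both with a dominant 3p arm, and let-7a at 7.41 was the next with a dominant 5p arm. The 5p arm dominated in 18 of the 36, the median of the absolute log2 ratio was 2.07 and the minor arm took a median of 16.1% of both arms, against 0.178% in miR-21. The within-group SD of the log2 ratio was 0.59 for miR-21 and had a median of 0.52, so the strong imbalance of miR-21 came with an ordinary spread between cows.

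**Figure D3:**
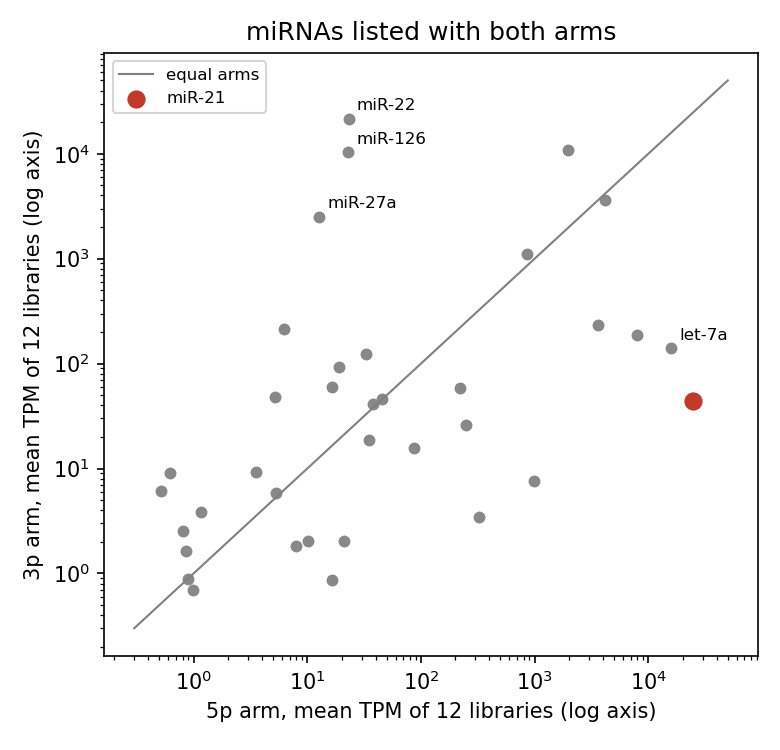
Mean TPM over 12 libraries of the 5p arm (x) and the 3p arm (y) of the 36 miRNAs listed with both arms, on log axes, with a line for equal arms. MiR-21, at 24817 TPM for 5p and 44.3 TPM for 3p, lies farthest to the side of the 5p arm, and miR-22 farthest to the side of the 3p arm.

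When the arm ratios of all 36 were fitted together with limma, the ratio of 7 changed between the stages at a Benjamini-Hochberg adjusted p under 0.05 (19.4% of those tested), and miR-21 was not among them. Its fitted difference, lactation over non-lactating, was -0.21 (SE 0.34, adjusted p = 0.584), near the median of -0.25 over all 36. For contrast, the ratio of let-7a fell by 2.22 on the log2 scale in lactation (adjusted p = 0.0211), that of miR-17 fell by 0.77 (adjusted p = 0.0211) and that of miR-30b rose by 0.92 (adjusted p = 0.0166). The others that passed were miR-362 (-1.55, adjusted p = 0.00544), miR-331 (-1.43, adjusted p = 0.0463), miR-545 (-1.30, adjusted p = 0.0361) and miR-345 (0.99, adjusted p = 0.0211). Between HD and LD the fitted difference of miR-21 was -0.73 (SE 0.46, adjusted p = 0.918), and between HP and LP it was -0.24 (SE 0.48, adjusted p = 0.963), where 2.78% and 5.56% of the 36 had an unadjusted p under 0.05 and none passed the adjustment.

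The comparison of HP with LP asks whether the milk protein percentage of the previous lactation went with the level of either arm in lactation. In these 6 libraries alone, miR-21-5p had 18978, 24087 and 15767 normalized TPM in HP and 19207, 20995 and 25274 in LP. MiR-21-3p had 27.6, 47.4 and 27.2 in HP and 72.4, 23.9 and 48.6 in LP. The groups overlapped for both arms. The log2 fold change, LP over HP, was 0.17 (SE 0.26, limma adjusted p = 0.858) for the 5p arm and 0.41 (SE 0.44, limma adjusted p = 0.752) for the 3p arm. Neither was a DE miRNA, a name kept here for an unadjusted p under 0.05 with a log2 fold change beyond 0.8 in either direction, as 10.1% of the 388 miRNAs were in this comparison.

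The comparison of HD with LD asks the same outside lactation, and here the 3p arm was higher in LD by the DE definition while the 5p arm did not pass it. Over the 6 libraries, miR-21-3p had 20.3, 28.7 and 45.0 normalized TPM in HD and 68.4, 77.2 and 47.3 in LD. Every LD library was above every HD library, although LD replicate 3 exceeded HD replicate 3 by little. The log2 fold change, LD over HD, was 1.06 (SE 0.39, 2.08-fold), with a limma adjusted p = 0.935 and an unadjusted value of 0.0270. By the DE definition 3.35% of all miRNAs were called and 2.06% in this direction, and an unadjusted value under 0.05 was reached by 19 miRNAs (4.9%). With limma and adjustment the count was 0 of 388 (0%). Groups without overlap were found for 10.3% of all miRNAs, 4.38% with every LD library above every HD library, and the exact permutation test of miR-21-3p gave p = 0.10, the smallest it can give. On the deposited TPM the groups of miR-21-3p overlapped, as they did for all but 7.22% of the miRNAs (1.55% with LD above), and LD exceeded HD by 0.83 (SE 0.53, limma adjusted p = 0.999) and was not DE. The median change over all miRNAs went from 0.03 to -0.16 with this scaling. Leaving out HD replicate 1, HD replicate 2, LD replicate 1 or LD replicate 2 also ended the call, with log2 fold changes of 0.78, 1.05, 1.01 and 0.92.

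MiR-21-5p had 30243, 19084 and 23803 normalized TPM in HD and 30079, 38116 and 24033 in LD in the same comparison. LD replicate 2 was above all HD libraries and the other 2 LD libraries lay within their range. LD exceeded HD by a log2 fold change of 0.33 (SE 0.34, limma adjusted p = 0.993). The difference between both phenotype effects, LD over HD against LP over HP, was 0.15 (SE 0.39, limma adjusted p = 0.993) for the 5p arm and 0.63 (SE 0.62, limma adjusted p = 0.963) for the 3p arm. At this size of error a dependence on stage was not detectable for either arm, and 4.38% of all miRNAs were DE in it.

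Biopsies mix epithelium, stroma, vessels and blood, and in bulk tissue fewer cells of a type and less RNA per cell cannot be told apart. The 5 leukocyte miRNAs, all of them listed, summed to 6953 to 10520 normalized TPM in HD and to 13657 to 14500 in LD. Most of this sum was miR-142-5p, with means of 7110 in HD and 12449 in LD. Of all single miRNAs 10.3% had groups without overlap. Of the 5 leukocyte miRNAs, miR-142-5p (log2 fold change 0.81, SE 0.29) and miR-142-3p (1.11, SE 0.38), made by blood cells, were DE and higher in LD. So were 2.06% of all miRNAs, and neither passed the adjustment. MiR-223 of myeloid cells (0.03, SE 0.54), miR-150 of mature lymphocytes (0.02, SE 0.43) and miR-155 of activated lymphocytes and macrophages (0.45, SE 0.34) were not DE. The 3 erythroid miRNAs summed to 278 to 829 in HD and 483 to 8023 in LD, with none DE. The 2 arms of miR-126 summed to 5438 to 5874 in HD and 6048 to 8603 in LD. Nearly all of this sum was miR-126-3p, which was not DE (0.30, SE 0.27). The scarce miR-126-5p, with means of 10.9 in HD and 25.5 in LD, was DE and higher in LD (1.15, SE 0.40). It was 1 of the 2.06% of all miRNAs called in this direction and did not pass the adjustment. The sums of the 6 epithelial miRNAs overlapped between HD and LD, at 18646 to 28562 and 17499 to 36127. Their members went both ways, with none DE. MiR-141 was higher in LD (0.50, SE 0.62), and the others were lower, from -0.38 for miR-200a to -0.65 for miR-200b. The list had a median of -0.41, against 0.03 for all miRNAs. The 2 smooth muscle miRNAs, miR-143 and miR-145, also overlapped in sum, at 52826 to 113251 and 85180 to 293570, nearly all of it miR-143. The part of these cell types in the difference of miR-21-3p was not tested.

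The comparison of stages asks whether either arm differed between lactation and the non-lactating period. MiR-21-5p ranged from 15747 over a median of 20574 to 27213 normalized TPM in the 6 lactation libraries and from 18448 over 25298 to 35770 in the 6 non-lactating libraries. MiR-21-3p ranged from 24.1 over 37.9 to 75.4 in lactation and from 18.5 over 44.1 to 72.4 outside it. The stages overlapped widely for both arms. The log2 fold change, lactation over non-lactating, was -0.29 (SE 0.20, limma adjusted p = 0.252, exact permutation p = 0.136) for the 5p arm and -0.08 (SE 0.31, limma adjusted p = 0.857, exact permutation p = 0.855) for the 3p arm. With the same test 44.3% of all 388 miRNAs passed the adjustment, and neither arm of miR-21 was among them. Changes of this size were not detectable for the 2 arms at the spread of these cows.

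The immune response list held 8 miRNAs whose transcription is known to be induced by factors that also act on miR-21 or that rise in inflammation, and all 8 were in the matrix. Between the stages 5 of the 8 were lower in lactation at an adjusted p under 0.05 and none was higher, beside 22.2% of all miRNAs that were lower. The list, chosen with earlier results of these data known, had a median log2 fold change of -1.06, against -0.01 for all miRNAs. MiR-146b and miR-146a, which restrain NF-kB signalling, fell by 3.07 (SE 0.42) and 1.76 (SE 0.43). MiR-147, induced by Toll-like receptors in macrophages, fell by 2.22 (SE 0.36), miR-155 fell by 1.29 (SE 0.21) and miR-221 fell by 0.83 (SE 0.23). MiR-222, miR-132 and miR-223 had log2 fold changes of -0.43, -0.32 and 0.13 and did not pass. The change of miR-21-5p, -0.29, lay closest to those of miR-132 and miR-222. The 5 leukocyte miRNAs summed to 5728 to 9087 normalized TPM in lactation and 6953 to 14500 outside it, mostly as miR-142-5p. Of the 5, 2 passed as lower in lactation, miR-155 and miR-142-5p (-0.77, SE 0.23). MiR-142-3p (-0.48), miR-150 (0.34) and miR-223 did not pass. Of the 5, miR-155 and miR-223 are also in the immune response list. The 6 epithelial miRNAs summed to 30301 to 55127 in lactation and 17499 to 36127 outside it. Of these 6, 5 passed as higher in lactation, and miR-205 did not pass. Both arms of miR-126 also passed as higher, beside 44.3% of all miRNAs that passed in either direction. The part of these cell types in the changes was not tested.

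**Figure D4:**
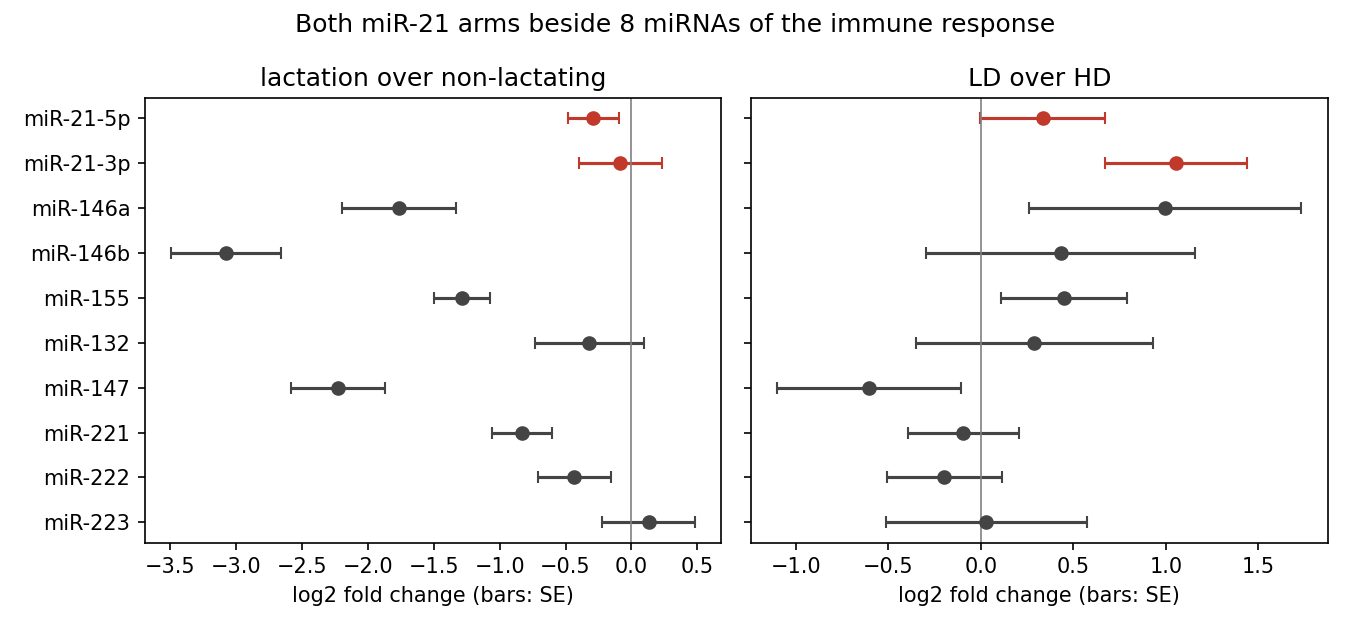
Log2 fold changes with their SE (bars) of both miR-21 arms (red) and the 8 miRNAs of the immune response list (grey), for lactation over non-lactating (left, 6 against 6 cows) and LD over HD (right, 3 against 3 cows). On the left both arms of miR-21 lie near 0, at -0.29 and -0.08, while miR-146b lies at -3.07, and on the right miR-21-3p lies at 1.06.

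Within lactation the median log2 fold change of the immune response list was 0.34, against -0.01 for all miRNAs. Of its 8 members 2 were DE between HP and LP, miR-146a (1.27, SE 0.32) and miR-146b (1.59, SE 0.29), both higher in LP beside 5.93% of all miRNAs, and none was DE between HD and LD, where the median of the list was 0.16. The fibrosis list held 8 miRNAs of fibroblasts and matrix turnover, a process in which miR-21 is known to take part. Between the stages 2 of its 8 passed the adjustment as higher in lactation, miR-29b (1.69, SE 0.23) and miR-29c (2.41, SE 0.29), which repress collagen genes. Of all miRNAs 44.3% passed, 22.2% as lower, so that the share of the list was near that of all. Another 2 of the list passed as lower in lactation, miR-214 (-1.17, SE 0.25) and miR-199a-3p (-0.63, SE 0.22), which are transcribed in fibroblasts. The log2 fold changes of both miR-21 arms lay between those of these members, and the median of the list was 0.01. None of the fibrosis list was DE between HD and LD, and miR-34a, a target of p53, was the one that was DE between HP and LP (1.32, SE 0.28).

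Levels outside lactation were also read against the time to calving. The HD cows were sampled 35, 29 and 21 days and the LD cows 39, 23 and 20 days before calving, in the order of their replicate numbers. On normalized TPM the slope per 10 days farther from calving, with the phenotype as a second term, was 0.10 on the log2 scale (SE 0.18, limma adjusted p = 0.757) for miR-21-5p and -0.15 (SE 0.26, limma adjusted p = 0.725) for miR-21-3p. For the arm ratio it was 0.26 (SE 0.34, limma adjusted p = 0.592 over 36 ratios, of which 27.8% passed). Of all 388 miRNAs 6.19% passed the adjustment in this fit, and neither arm was among them.

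Without size factors the picture of the 5p arm was another. The libraries farthest from calving, LD replicate 1 at 39 days and HD replicate 1 at 35 days, held the highest deposited TPM of miR-21-5p, at 44742 and 41176, and the other 4 held 17890 to 27316. The slope became 0.63 per 10 days (SE 0.17, limma adjusted p = 0.0295), and the slope of miR-21-3p became 0.36 (SE 0.27, limma adjusted p = 0.297). With the same change of scale the median slope over all miRNAs went from -0.02 to 0.41, 83.2% of all slopes were then positive and 32.0% of all miRNAs passed the adjustment. Relative to that median the slope of miR-21-5p stood at percentile 70.6 of all miRNAs.

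Over the 6 libraries the normalized level of miR-21-5p had Pearson r = 0.18 with the days before calving (exact permutation p = 0.758) and Spearman rho = 0.26 (exact permutation p = 0.658). MiR-21-3p had r = -0.22 (exact permutation p = 0.646) and rho = -0.14 (exact permutation p = 0.803), and the log2 arm ratio had r = 0.36 (exact permutation p = 0.561) and rho = -0.03 (exact permutation p = 1). Adjusted over these 3 relations the lowest p was 0.758 for r and 1 for rho. Without the 2 libraries farthest from the median day, r was -0.40, -0.59 and 0.89 over the remaining 4 libraries, so that none of the 3 kept its size. Each phenotype held 3 libraries, too few for a value within HD or LD.

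Deposited TPM of miR-21-5p had r = 0.87 with the days (exact permutation p = 0.0264, adjusted p = 0.0528 over 4 relations added later) and rho = 0.83 (exact permutation p = 0.0583, adjusted p = 0.104). It rested on HD replicate 1 and LD replicate 1, since r was 0.15 without them. The size factor itself had r = 0.95 with the days (exact permutation p = 0.0153, adjusted p = 0.0528) and rho = 0.83, and r = 0.78 without these 2 libraries. MiR-21-3p on deposited TPM had r = 0.37 (exact permutation p = 0.497) and rho = 0.09. Days after dry-off and days before calving were themselves related, with r = -0.74 (exact permutation p = 0.0972) and rho = -0.78, so that both clocks could hardly be told apart in these 6 cows. This relation also rested on HD replicate 1 and LD replicate 1, since r was -0.21 without them.

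**Figure D5:**
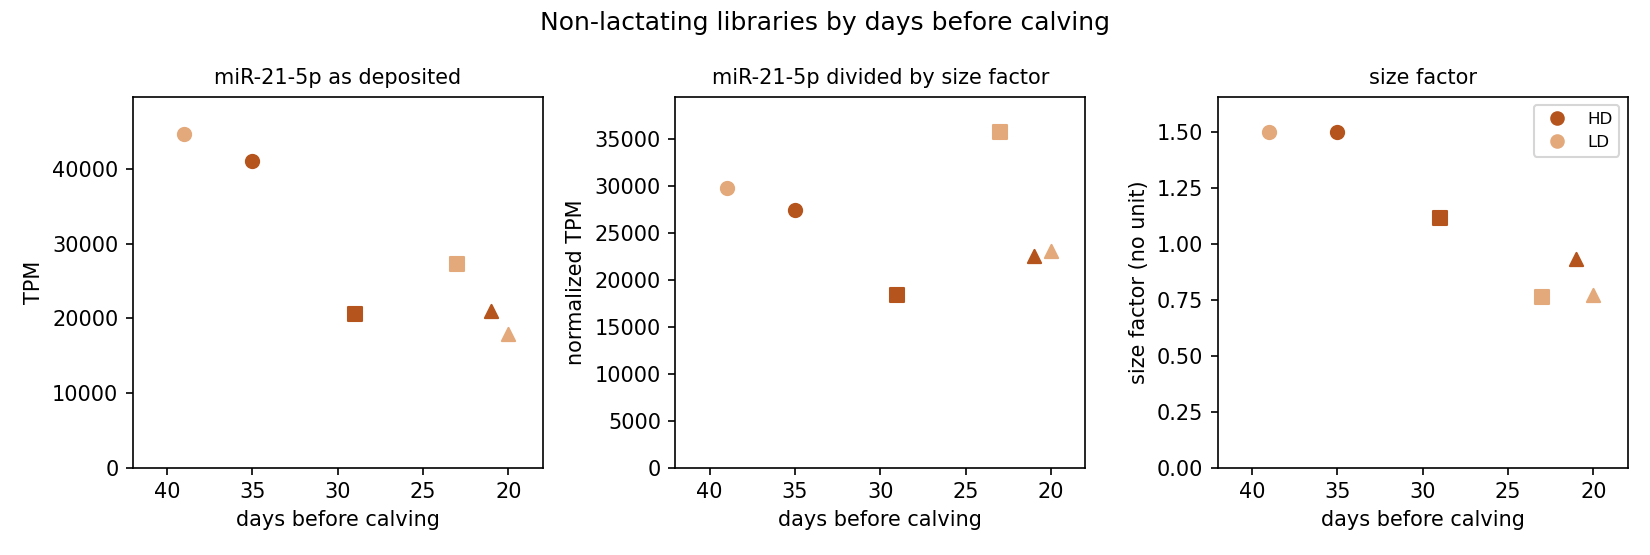
Non-lactating libraries by days before calving (x, falling towards calving), with miR-21-5p in deposited TPM (left), miR-21-5p in normalized TPM (middle) and the size factor (right), for HD and LD with symbol shapes for the replicate number. The 2 libraries at 35 and 39 days are the highest on the left and on the right, where both have a size factor of 1.50, and in the middle LD replicate 2 at 23 days is the highest with 35770.

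Both arms come from 1 precursor, and their normalized levels had r = 0.48 over the 12 libraries (permutation p = 0.115) and rho = 0.41 (permutation p = 0.183). Within lactation r was 0.39 (exact permutation p = 0.439) with rho = 0.37, and within the non-lactating period it was 0.48 (exact permutation p = 0.340) with rho = 0.43. Adjusted over these 3 relations the p of r was 0.345 over the 12 libraries and 0.439 within each stage. Without the 2 libraries of extreme 5p level the 3 values of r became 0.23, 0.04 and -0.25, so that they rested on those libraries.

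The miRNAs with the pattern most like each arm were named by Pearson r of log2 normalized TPM over the 12 libraries among 232 miRNAs with a mean of at least 10 TPM, as a description of points that share library and scaling. For miR-21-5p these were miR-218 (r = 0.75), miR-301a (0.75), miR-106b (0.72), miR-142-3p of blood cells (0.70) and miR-99a-3p (0.61). After subtraction of the group means they were miR-99a-3p (0.80), miR-29b (0.73), miR-12034 (0.71), miR-106b (0.66) and miR-218 (0.63), so that miR-218, miR-106b and miR-99a-3p were named both ways. The most negative for miR-21-5p after subtraction were miR-500 (-0.89), miR-215 (-0.89) and miR-363 (-0.86), larger in size than any positive r. For miR-21-3p the most alike over the 12 libraries were miR-30e-5p (0.73), the erythroid miR-144 (0.68) and miR-486 (0.67), miR-143 of smooth muscle (0.65) and miR-142-5p of blood cells (0.63). After subtraction of the group means they were miR-33a (0.77), miR-30e-5p (0.73), miR-142-5p (0.68), miR-29b (0.67) and miR-33b (0.66), where miR-33a and miR-33b lie in the introns of the SREBF genes of lipid synthesis. Blood cell miRNAs went both ways for miR-21-3p, since miR-150 of lymphocytes was among the most negative, at r = -0.58. After subtraction miR-150 was the most negative of the 232, at -0.74. The other arm of miR-21 was not among the miRNAs most like either arm, with r = 0.48 and, after subtraction, 0.24.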

How the data were processed

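Small RNA libraries of 12 mammary biopsies, 3 per group, had been sequenced with single-end reads. The authors trimmed reads with Cutadapt 2.8 and Trimmomatic 0.36, kept 18 to 30 nt, mapped them with Bowtie 1.1.1 to ARS-UCD1.2 with 1 mismatch, and quantified known miRNAs of miRBase 22.0 with miRDeep2. The authors deposited RPM values, which they call TPM, in 426 rows, each a mature form with 1 of its precursors. The row with the largest mean stood for each mature form, leaving 388. Groups and replicate numbers were taken from the labels, and days from the study's description of the cows.

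Depth was inferred from the step of the deposited values: 100% were whole multiples within 0.0051 TPM, where chance would give at most 24.0%. The inference rests on few low values, since 42 to 119 values per library were worth up to 20 reads and 1 of the 12 libraries had at least 100. Read numbers, floors and intervals are therefore inferred, and no test used them as counts. Size factors (median of ratios, taken over the libraries that entered a fit) divided the TPM before a pseudocount of 1 and log2. Differences were fitted over all miRNAs with limma 3.58.1 (R 4.3.3, trend) and adjusted by the Benjamini-Hochberg method. The slope on days had the phenotype as a second term. Single values were compared with two-sided exact permutation tests (Python 3.11.15, scipy 1.17.1), and the correlation over 12 libraries with 100000 permutations. Replicates were different cows. Same-numbered libraries of both phenotypes did not deviate together throughout (r from -0.26 to 0.55), so the numbers were not used as pairs. In simulated tables of 388 miRNAs, 200 were given a log2 change of 1. Of the 200, 64% were recovered as DE in HD vs LD, 73% in HP vs LP and 75.5% between stages. Of the unchanged miRNAs 3.19%, 1.6% and 1.06% were called in the same order. The simulated noise was independent between miRNAs and held no error of the size factors.

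The arms were taken by name, and the lists (immune response, fibrosis, epithelium, endothelium, smooth muscle, leukocytes, erythroid, skeletal muscle) and the rule for named miRNAs were chosen with earlier results of these data known. Named were both arms, the list members, the neighbours in rank, the 5 miRNAs most like each arm, and the precursors next in arm imbalance or changed in arm ratio. The miRNAs most negative for miR-21-5p were added to these. Results were recomputed without size factors, with a pseudocount of 0.1 or 5, with miRNAs of at least 10 TPM on average, without the trend, with all precursor rows, with a block for the replicate number, with 1 fit over all libraries, with other terms for days, and without each library.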

Additional observations from a re-analysis of the deposited data

Results flagged for a closer look

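One value stood apart from its group. Among the 6 non-lactating libraries the log2 arm ratio of miR-21 was 10.54 in HD replicate 1, and the next highest was 9.38 in HD replicate 2. The gap between them was 0.661 of the range of the 6 libraries, past the 95% critical value of Dixon's test. The library held the second highest deposited TPM of miR-21-5p (41176) and a miR-21-3p level of 27.7 TPM, the lowest of the non-lactating libraries. In all 6 groups of libraries were tested in this way, and chance flags about 1 in 20.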

How the results depend on the processing

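For 17 results on both arms and their ratio, 237 values were recomputed under other settings, of which 215 kept their direction and their side of the threshold, 16 reversed, 5 lost a call and 1 gained one. Without size factors miR-21-3p in HD vs LD was no longer DE (0.83, limma adjusted p = 0.999), the stage dependence of miR-21-5p was -0.034 where the median of all miRNAs went from 0.04 to -0.11, and the slopes on days were 0.63 for miR-21-5p, which then passed the adjustment, and 0.36 for miR-21-3p. With days after dry-off in place of days before calving, turned in sign since that clock runs the other way, the slopes were 0.53 for miR-21-5p and 0.20 for miR-21-3p, which reversed. MiR-21-5p in HD vs LD was 0.098 without size factors. Leaving out 1 library at a time gave 0.016 to 0.33 and 0.055 to 0.82 for miR-21-5p and miR-21-3p in HP vs LP, 0.17 to 0.49 for miR-21-5p in HD vs LD, 0.20 to 1.00 for the stage dependence of miR-21-3p, 0.78 to 1.35 for miR-21-3p in HD vs LD, -0.24 to 0.14 for miR-21-3p between stages, -0.010 to 0.32 for the stage dependence of miR-21-5p, and -0.028 to 0.32 and -0.64 to 0.080 for the slopes of miR-21-5p and miR-21-3p. For the fitted arm ratio it gave -0.64 to 0.20 in HP vs LP, -0.41 to 0.013 between stages and -0.030 to 0.97 per 10 days. For the arm ratio by the exact test it gave -0.35 to 0.046 between stages and -0.66 to 0.20 for LP minus HP. Apart from the size factors the cause was not tested.

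Counts over all miRNAs also moved. DE miRNAs numbered 39 in HP vs LP and 22 with a pseudocount of 5 and 24 to 53 without 1 library (24 without LP replicate 1), and 13 in HD vs LD, 3 without size factors, 7 with a pseudocount of 5, 8 with a mean of at least 10 TPM and 6 to 36 without 1 library. For the stage dependence they numbered 17, 10 with a pseudocount of 5, 8 with a mean of at least 10 TPM and 11 to 30 without 1 library. The miRNAs past the adjustment for days numbered 24, 124 without size factors, 13 with a pseudocount of 5, 42 with days alone, 0 with days after dry-off and 0 to 51 without 1 library. Arm ratios past the adjustment between stages numbered 7, 11 with a pseudocount of 5 and 2 to 13 without 1 library.

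The replicate numbers do not pair the cows. With the number as a block miR-21-3p in HD vs LD was 1.06 (SE 0.39, limma adjusted p = 0.591) and still DE, miR-21-5p was 0.33, and no call on either arm changed. DE miRNAs numbered 34 in HP vs LP, 17 in HD vs LD and 132 between stages, and 12 arm ratios passed between stages. Not every library correlated best with its own number, and in HD and LD the numbers run with the days before calving. A planned test on read counts was not run, because 11 of the 12 libraries held too few low values to recover whole reads by the limit set for it. Depth limits the 3p arm, with 159 to 1457 reads, more than the 5p arm.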
